A study of Mus musculus with 18 samples.

Results

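The brains of mice given flour from conventionally grown potatoes (PC) were compared directly with those of mice given a mixture of pesticides (ADI). Arrays were chosen by their titles, and the comparison holds 6 of the 18 arrays of the study, 3 for PC and 3 for ADI, with all 12439 features of the deposited intensity table. Both groups were male BALB/cOlaHsd mice, 8 weeks of age at the start, on standard chow and water, with a daily gavage for 20 days. The PC mice received 30 mg of flour per day, made from tubers with their skin and suspended in water. The ADI mice received a solution of 9 pesticides used in conventional potato growing, each at the acceptable daily intake, and no potato. The study's 6 groups had 12 mice each. In PC and ADI, 3 mice per group were killed on day 20 for brain RNA, and each array carries the RNA of a single mouse. The brain was cut into cubes, and the labels do not give the region sampled. Water-gavaged controls did not enter the comparison, so a difference here is between both treatments and not from an untreated level. The names of the pesticides and any residues in the flour are likewise not stated in the labels.

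The acceptable daily intake is the amount of a substance judged safe to eat every day over a lifetime, and it is set with a wide margin below the dose without effect in animal tests. Several classes of insecticide act on the nervous system, by blocking acetylcholinesterase or by holding sodium channels open, and many crop chemicals are cleared by liver enzymes under the control of the aryl hydrocarbon, pregnane X and constitutive androstane receptors. Potato tubers carry compounds of their own, above all in the skin, among them the glycoalkaloids solanine and chaconine, which also inhibit cholinesterase. Setting the flour beside the pesticides asks whether a conventional potato and the chemicals used to grow it leave the brain with different transcript levels.

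Only 51 of the 12439 features carry a gene symbol in the files used here, and the others are known by number. The 51 genes were listed by the authors on arrays of this study. They include olfactory and vomeronasal receptors, neuronal secretory and synaptic genes, regulators of chromatin and transcription, and receptors and adaptors of signalling pathways. Vgf, which encodes a secreted neuropeptide precursor of neurons, was the only one of the brain markers considered that is among the named features. Its scaled intensity lay between 357 and 488 on the 6 arrays. With no array of another tissue and no threshold to compare with, this value could not check the label of brain.

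Promoter windows of 3 listed genes are shown because these genes turn up in the results that follow. Each window runs from 250 bases before to 50 bases after the start of the gene, 5′ to 3′ on the strand of the gene, from RefSeq on GRCm38.p6. Cish is an inhibitor of cytokine signalling whose transcription is switched on by STAT5, and its window at chr9:107296409-107296708 on the plus strand holds 2 copies of the STAT element TTCNNNGAA, in capitals. Zfp37 encodes a zinc finger protein, and of its 2 windows that at chr4:62208497-62208796 on the minus strand holds GCGTG, the core of the element bound by the aryl hydrocarbon receptor, in capitals. Olfr1278 encodes an olfactory receptor, and its window at chr2:111292020-111292319 on the plus strand holds neither motif on either strand.
Cish: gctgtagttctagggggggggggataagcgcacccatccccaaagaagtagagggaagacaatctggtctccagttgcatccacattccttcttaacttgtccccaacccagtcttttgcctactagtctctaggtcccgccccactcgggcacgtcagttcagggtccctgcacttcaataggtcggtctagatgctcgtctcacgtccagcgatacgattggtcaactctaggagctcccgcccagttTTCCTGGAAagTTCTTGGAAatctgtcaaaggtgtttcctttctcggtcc
Zfp37: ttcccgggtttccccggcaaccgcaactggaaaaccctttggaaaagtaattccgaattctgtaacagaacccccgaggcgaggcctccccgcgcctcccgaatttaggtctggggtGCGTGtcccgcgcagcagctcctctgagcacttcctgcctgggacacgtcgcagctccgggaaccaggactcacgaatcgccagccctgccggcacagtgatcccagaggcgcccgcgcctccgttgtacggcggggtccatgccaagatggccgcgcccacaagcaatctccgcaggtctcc
Olfr1278: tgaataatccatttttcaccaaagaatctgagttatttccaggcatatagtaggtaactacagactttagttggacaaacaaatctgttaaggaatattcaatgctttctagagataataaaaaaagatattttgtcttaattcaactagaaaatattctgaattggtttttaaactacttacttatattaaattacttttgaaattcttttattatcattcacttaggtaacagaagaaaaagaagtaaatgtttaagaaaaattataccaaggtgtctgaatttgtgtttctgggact

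A promoter window was found for 43 of the 51 listed genes, with 58 windows in all. GCGTG, searched on both strands, occurred in 26 of the 58 windows (44.8%) and in 32.4% of all 32851 mouse windows. TTCNNNGAA reads as the same pattern on both strands, and it occurred in 7 of the 58 windows (12.1%) and in 8.3% of all windows. The median log2 difference between PC and ADI was -0.026 for the 20 genes with GCGTG and -0.012 for the 23 without it. For the STAT element it was -0.040 for the 6 genes with it, Cish among them, and -0.012 for the 37 without it. These matches describe the letters of the windows and not binding.

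The 6 arrays were alike, with correlations of 0.974 to 0.984 across log2 values of features. The 75th percentile of intensity was 1002, 987.5 and 878.5 on ADI arrays 1 to 3, and 1059, 1025.5 and 1079 on PC arrays 1 to 3. Every PC array was thus brighter than every ADI array, with a ratio of geometric means of 1.10 (exact permutation test, two-sided, p = 0.1, the smallest that 20 arrangements allow). The rule of the comparison brought arrays to the same 75th percentile, which removes this difference in brightness. Differences below are PC minus ADI on the log2 scale after that scaling. Same-numbered ADI and PC arrays deviated together from their group means (r across features of 0.159, 0.317 and 0.205), and the arrays were paired by number in a limma fit.

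No listed gene passed the test between PC and ADI. Among the 51 genes, 30 (58.8%) were lower and 21 higher in PC, where 51.6% of all features were lower, with differences from -0.29 to 0.14 and a median of -0.012. The median of all features was -0.0049. None passed the adjusted threshold of 0.05 (limma, smallest adjusted p 0.982), where 0.00% of all features were called. The 95% interval of the difference lay inside 2-fold for all 51 genes and inside 1.5-fold for 49 of them, where 89.5% and 69.4% of all features did. Among the 2 brightest of 4 equal groups of features by level, which hold all listed genes, 99.3% and 99.5% lay inside 2-fold and 92.8% and 94.9% inside 1.5-fold. The exceptions at 1.5-fold were Ppp1r18 and Tulp4. With no scaling between arrays, PC was higher for 47 of the 51 genes, where the median difference of all features was itself 0.14. The 4 genes still lower in PC without scaling were Olfr1278, Ppp1r18, Catsperb and Cish. A smaller number of cells of a given type and less RNA per cell cannot be told apart in such samples of whole tissue.

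**Figure D1:**
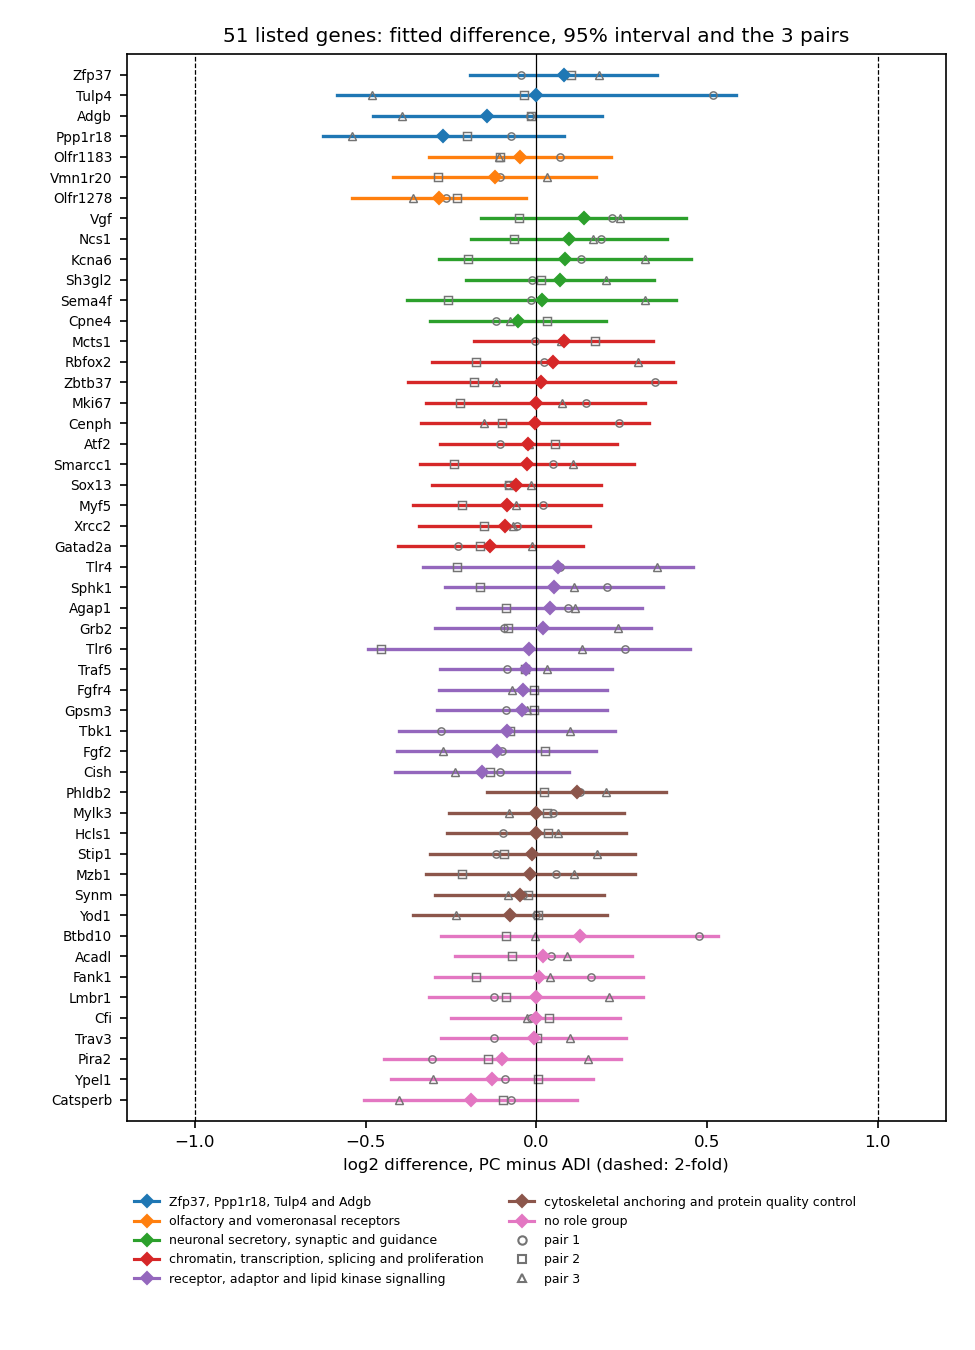
Log2 difference between PC and ADI (x axis) for the 51 listed genes (y axis), coloured by role. Diamonds are fitted values, bars are 95% intervals and open symbols are the 3 same-numbered pairs. All 51 intervals lie between the dashed lines at 2-fold, and the interval of Olfr1278 does not include 0.

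The 3 chemosensory receptors were lower in PC, of which only Olfr1278 stayed lower with no scaling. Olfr1278 had scaled intensities of 958, 1567 and 1118 in ADI replicates 1 to 3 and of 798, 1334 and 870 in PC. PC lay below ADI in each of the 3 pairs, while the groups overlapped because replicate 2 was the highest in both. Its difference of -0.29 ± 0.094 (SE), with a 95% interval from -0.54 to -0.031, was the only one of the 51 genes with an unadjusted p under 0.05 (limma, adjusted p 0.982). That is 1.96% of the listed genes, against 4.55% of all features at the same limit. The listed genes are all among the brighter features, and with features split by level into 4 groups of equal size the share was 1.64% in the third group and 0.772% in the brightest. A single gene of 51 gives no result about the list. Vmn1r20, a vomeronasal receptor, had 978, 1766 and 807 in ADI and 908, 1447 and 825 in PC, a difference of -0.12 ± 0.11 (SE) that changed sign in pair 3. Olfr1183, the other olfactory receptor of the list, had 774, 1330 and 951 in ADI and 813, 1235 and 882 in PC, a difference of -0.048 ± 0.099 (SE).

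Of the 11 genes for receptors, adaptors and kinases of signalling pathways, 7 were lower in PC and 4 higher, with a median of -0.029; with no scaling only Cish was lower. After scaling, Cish was the only listed gene whose groups did not overlap, which held for 6.27% of all features (3.36% for PC lower). With no scaling its difference was only -0.016 (limma, unadjusted p 0.892), and overlap of its groups was not tested there. The scaled values of Cish were 955, 1014 and 1057 in ADI and 887, 923 and 897 in PC. All 3 PC values lay below the lowest ADI value. The fitted difference between the groups was -0.16 ± 0.095 (SE; limma, adjusted p 0.982). The same gene carries the paired STAT elements printed above, and a link between them and its level was not tested. Traf5, an adaptor of TNF receptors, had a mean of 2021 ± 303 (SD, n = 3) in ADI and 1977 ± 257 (SD, n = 3) in PC. Agap1, a GTPase-activating protein for Arf that works in endosome traffic, had 595.0 ± 70.4 and 608.9 ± 30.0. The receptor Fgfr4, for fibroblast growth factors, had among the narrowest intervals of the list, -0.29 to 0.21 around -0.039.

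Tlr6, a Toll-like receptor for bacterial lipopeptides, had a wide interval. It had 409, 685 and 461 in ADI and 491, 500 and 506 in PC. The pairs thus pointed in opposite directions, at 0.26, -0.45 and 0.13, around a fitted difference of -0.020 with a half-width of 0.47.

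Genes of neuronal secretion, synapse and guidance were mostly higher in PC, 5 of 6, with a median of 0.076, and none passed. With array weights 4 of 6 were higher. With no scaling 6 of 6 were, but so were 47 of the 51 listed genes. No gene of the 6 had the same direction in all 3 pairs, and the medians of pairs 1 to 3 were 0.060, -0.059 and 0.23. Vgf had the highest difference of all listed genes. It had 364, 488 and 357 in ADI and 425, 470 and 424 in PC. PC was higher in pairs 1 and 3 and lower in pair 2, and the difference of 0.14 ± 0.11 (SE) had a 95% interval from -0.16 to 0.44. Ncs1, a neuronal calcium sensor, differed by 0.097 ± 0.11 (SE), and Kcna6, a subunit of voltage-gated potassium channels, by 0.083 ± 0.14 (SE). Sh3gl2 (endophilin A1), which acts in the recycling of synaptic vesicles, had 581.4 ± 71.9 (SD, n = 3) in ADI and 607.9 ± 45.8 (SD, n = 3) in PC. Sema4f, a semaphorin of the postsynaptic membrane, had 490.8 ± 50.3 and 496.3 ± 53.8. Cpne4, a copine that binds phospholipids in the presence of calcium, was the member lower in PC, with 847, 1273 and 908 in ADI and 780, 1302 and 861 in PC. Its groups overlapped almost completely, and replicate 2 was again the highest in both.

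Regulators of chromatin, transcription, splicing and proliferation were lower in PC for 8 of 11 genes, with a median of -0.024, but for none with no scaling and for 5 with the trend along the feature number removed. Gatad2a, part of the NuRD complex that remodels and deacetylates chromatin, was lower in each of the 3 pairs. It had 964, 1341 and 883 in ADI and 823, 1197 and 876 in PC, with a difference of -0.13 ± 0.10 (SE). Rbfox2, an RNA-binding regulator of splicing, had 976, 1328 and 813 in ADI and 992, 1174 and 999 in PC, and its pairs disagreed in sign. Zbtb37, a BTB zinc finger protein, had 349, 561 and 515 in ADI and 444, 494 and 474 in PC, so that all PC mice lay inside the range of ADI. Mki67, a nuclear protein of dividing cells, differed by -0.0014, with a 95% interval from -0.32 to 0.32.

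Cytoskeletal anchoring and protein quality control genes were lower in PC for 4 of 7 members, with a median of -0.012, for none with no scaling and for 2 with the trend along the feature number removed. Phldb2, which anchors microtubules near the cell cortex, was the only listed gene higher in PC in all 3 pairs after scaling. It had 1110, 936 and 940 in ADI and 1212, 951 and 1083 in PC, a difference of 0.12 ± 0.097 (SE), and the groups overlapped. A direction shared by all 3 pairs occurred for 12 of the 51 genes (23.5%), 1 higher and 11 lower, and for 25.1% of all features, 11.8% higher and 13.3% lower. Synm, an intermediate filament protein, had the narrowest interval of the list, -0.30 to 0.20 around -0.049. It had 2130, 2378 and 2181 in ADI and 2073, 2339 and 2059 in PC. Hcls1, a relative of cortactin in blood cells, was among the smallest differences, at 0.00035, with an interval from -0.26 to 0.26.

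The genes outside these roles gave a median of -0.0018, with 5 of 9 lower in PC and, with no scaling, only Catsperb. Catsperb, a subunit of the calcium channel of sperm, was lower in all 3 pairs. It had 2217, 3237 and 2414 in ADI and 2105, 3026 and 1827 in PC, with a difference of -0.19 ± 0.12 (SE). Btbd10, a BTB domain protein, had 397, 465 and 494 in ADI and 553, 437 and 493 in PC. Its difference of 0.13 ± 0.15 (SE) thus came from pair 1, at 0.48, while pairs 2 and 3 lay at -0.090 and -0.0050. Lmbr1, whose intron holds the limb enhancer of Shh, differed by 0.00030, and Cfi, a protease that inactivates complement, by -0.0018.

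Zfp37, Ppp1r18, Tulp4 and Adgb had wider spans between replicate numbers than most features. They were not alone in the list, since Vmn1r20 lay at percentile 95.8 of all features and Lmbr1 at 91.64. Ppp1r18 itself lay at 92.29, Tulp4 at 89.2 and Adgb at 88.54. A span between pair means larger than the treatment difference was common to the data. The medians were 0.29 and 0.10 on the log2 scale over all features and 0.38 and 0.052 over the listed genes. The first is a range over 3 pair means and the second an absolute difference of group means. Such a range tends to be larger by construction, so these medians do not weigh replicate against treatment. Zfp37 had 714, 801 and 1836 in ADI and 692, 860 and 2087 in PC. Replicate 3 was the highest in both groups, and the means of the pairs spanned 2.78-fold, a span exceeded by few features (percentile 98.95 of all features). The treatment difference was 0.081 ± 0.10 (SE), with a 95% interval from -0.19 to 0.35. Ppp1r18, a regulatory subunit of protein phosphatase 1, had 53780, 52024 and 36529 in ADI and 51058, 45226 and 25110 in PC. Here replicate 3 was the lowest in both groups, the pair means spanned 1.73-fold, and the difference was -0.27 ± 0.13 (SE; limma, adjusted p 0.982).

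Adgb, a globin of the testis and of ciliated cells, had 51777, 50311 and 36854 in ADI and 51090, 49752 and 28052 in PC. Its pairs 1 and 2 differed by -0.019 and -0.016, and pair 3 by -0.39. Tulp4, a tubby-like protein, had 35869, 50220 and 36235 in ADI and 51403, 48969 and 25954 in PC. The first pair was higher in PC by 0.52 while the third lay at -0.48, so the order of the replicates differed between the groups. The fitted difference was 0.00044, with the widest interval of the list, a half-width of 0.58. What the replicate number stands for beyond an individual mouse is not given in the labels.

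**Figure D2:**
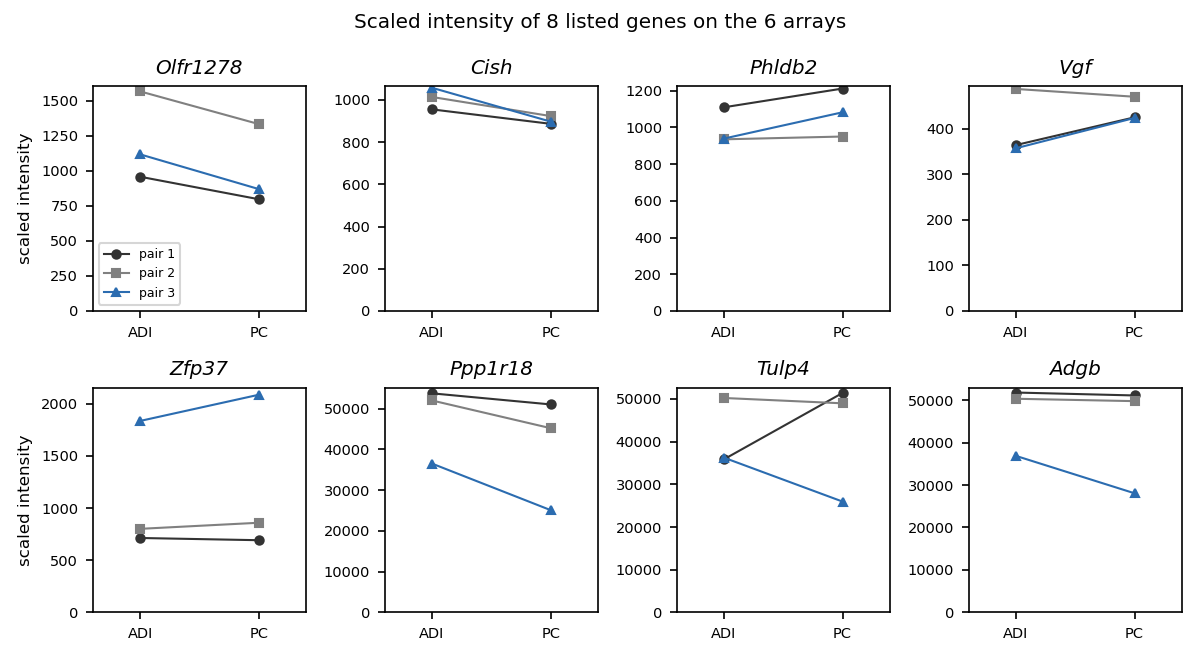
Scaled intensity (y axis, from 0) of 8 listed genes in ADI and PC, with 1 point per mouse and lines joining the same replicate number. Cish has all 3 PC points below all ADI points; replicate 3 is highest in both groups for Zfp37 and lowest in both for Ppp1r18 and Adgb.

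A dependence on the replicate number ran through most of the listed genes. Replicate 2 was the highest mouse in both groups for 34 of the 51 genes (66.7%), against 19.9% of all features. Replicate 1 was highest in both for 3 genes and replicate 3 for 1 gene, where 12.9% and 14.4% of all features were. The median deviation of the listed genes from their group mean was 0.22 on ADI replicate 2 and 0.14 on PC replicate 2, and from -0.13 to -0.055 on the other 4 arrays. The 1805 unlisted features that lie nearest to them by feature number had medians from -0.020 to 0.021. The authors listed these genes on arrays of the same study, so the list is not an independent sample of features, and no test of this pattern was made.

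**Figure D3:**
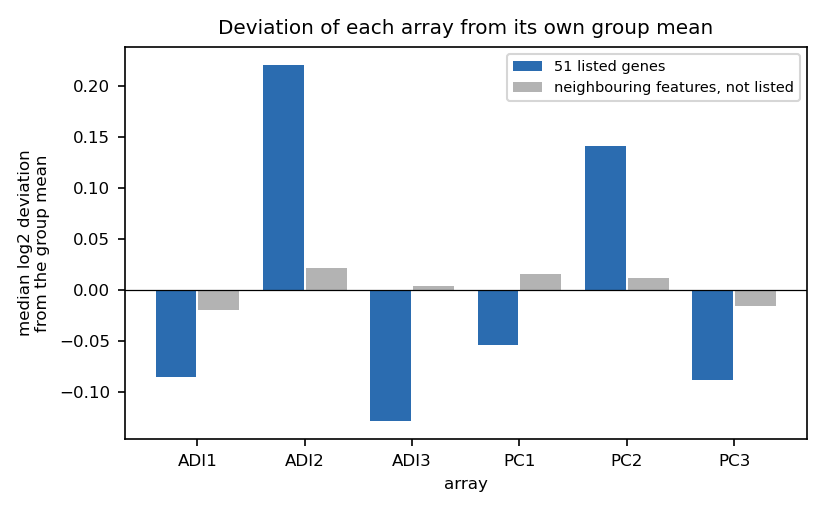
Median log2 deviation of each array from its own group mean (y axis) for the 51 listed genes and for the 1805 unlisted features nearest to them by feature number, on the 6 arrays (x axis). The listed genes are high on replicate 2 of both groups, at 0.22 and 0.14, and the neighbouring features stay between -0.020 and 0.021.

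Across all 12439 features the paired fit called 0 (limma, smallest adjusted p 0.662). At an unadjusted p under 0.05 there were 566 features (4.55%), of which 247 (1.99%) were higher and 319 (2.56%) lower in PC. With no scaling the split of such features was 729 higher and 107 lower. The median difference was -0.0049, and the 5th and 95th percentiles were -0.35 and 0.32. The 95% interval had a median half-width of 0.33, or 1.26-fold, so differences of the size of those in the list could not be resolved for a typical feature. Groups did not overlap for 780 features (6.27%), 362 higher and 418 lower in PC.

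Precision depended on brightness. With the features split by level into 4 groups of equal size, intervals inside 2-fold made up 61.6% of the dimmest group and 97.7%, 99.3% and 99.5% of the others in rising order. The median residual SD in the same order was 0.37, 0.17, 0.11 and 0.093 on the log2 scale. Unadjusted p under 0.05 occurred in 10.8% of the dimmest group and in 0.772% of the brightest. All 51 listed genes lie in the 2 brighter groups, 32 in the third and 19 in the brightest.

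The unnamed features printed here were chosen by smallest p. Only differences of at least 1.5-fold whose groups do not overlap were considered. The chosen features include 3 dim ones. Feature 26742 had 28.0, 33.5 and 28.5 in ADI and 63.5, 72.4 and 55.8 in PC, a difference of 1.09 ± 0.10 (SE). Feature 2660 had 29.0, 42.7 and 34.3 in ADI and 66.3, 86.1 and 66.0 in PC, a difference of 1.05 ± 0.10 (SE). Feature 36872 had 59.1, 68.1 and 62.8 in ADI and 19.9, 29.3 and 19.5 in PC, a difference of -1.49 ± 0.13 (SE). In each the groups lie apart, as the choice required, at intensities close to the floor of 16. Each had an adjusted p of 0.662 (limma). The fit draws the spread of every feature toward a common value, while the median residual SD in the dimmest group by level was 0.37.

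Feature 11646 stood apart from these in brightness. It had 1419, 2395 and 1255 in ADI and 495, 990 and 577 in PC. Every PC mouse lay below every ADI mouse, and groups that do not overlap were a condition of its choice. The mean was 1690 ± 617 (SD, n = 3) in ADI and 688 ± 265 (SD, n = 3) in PC, 2.47-fold lower in the fit. It was 1 of 7 features (0.0563%) with at least a 2-fold difference in all 3 pairs, 1 of them higher and 6 lower in PC, and the 6 others lie in the dimmest of the 4 groups by level. Its difference of -1.30 ± 0.12 (SE) did not pass in the paired fit (limma, adjusted p 0.662).

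The count of 0 did not hold when the prior spread was allowed to depend on brightness. In that fit (limma, intensity trend and robust estimation) 24 features were called, 22 lower and 2 higher in PC, and none was a listed gene. Feature 11646 had the smallest adjusted p, 8.3e-09. Each of the 24 had the same direction in all 3 pairs, where 25.1% of all features did. Groups did not overlap for 16 of them, where this held for 6.27% of all features. Selection by a small p in a fit of these same pairs favours both traits, so neither adds to the calls. By level, 0 lie in the dimmest of the 4 groups, which holds features 26742, 2660 and 36872, and 23 lie in the 2 brightest. A set of 12 had mean levels between 394 and 495, with group means of 541 to 693 in ADI and 304 to 389 in PC, and was 1.54-fold to 1.98-fold lower in PC. Another 4, with means of 5744 to 7106 in ADI and 3842 to 4792 in PC, had differences of -0.59 to -0.50. Whether these features share a gene is not given in the files used here.

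The calls of that fit depended on the pairing and on which pairs of mice entered it. With no replicate block it called 0 features (limma, smallest adjusted p 0.208). Without replicate 1, 2 or 3, which leaves out an ADI and a PC mouse each time, it called 29, 5 and 13 features, of which 15, 5 and 12 were among the 24.

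**Figure D4:**
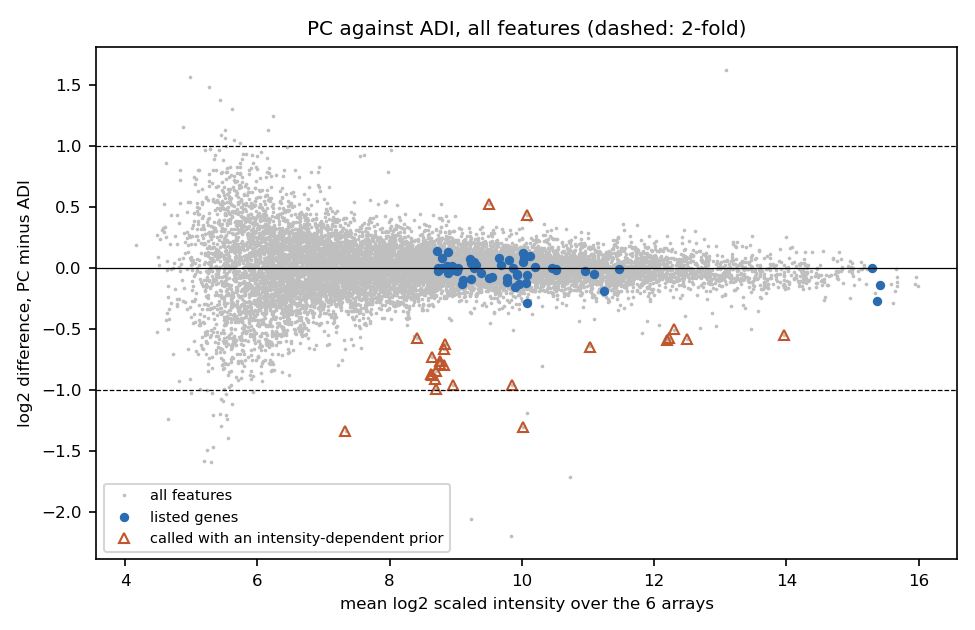
Log2 difference between PC and ADI (y axis) against the mean log2 scaled intensity over the 6 arrays (x axis) for 12439 features. Blue points are the 51 listed genes, all between -0.29 and 0.14, and open triangles are the 24 features called when the prior spread follows brightness, 22 of them below 0.

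**Figure D5:**
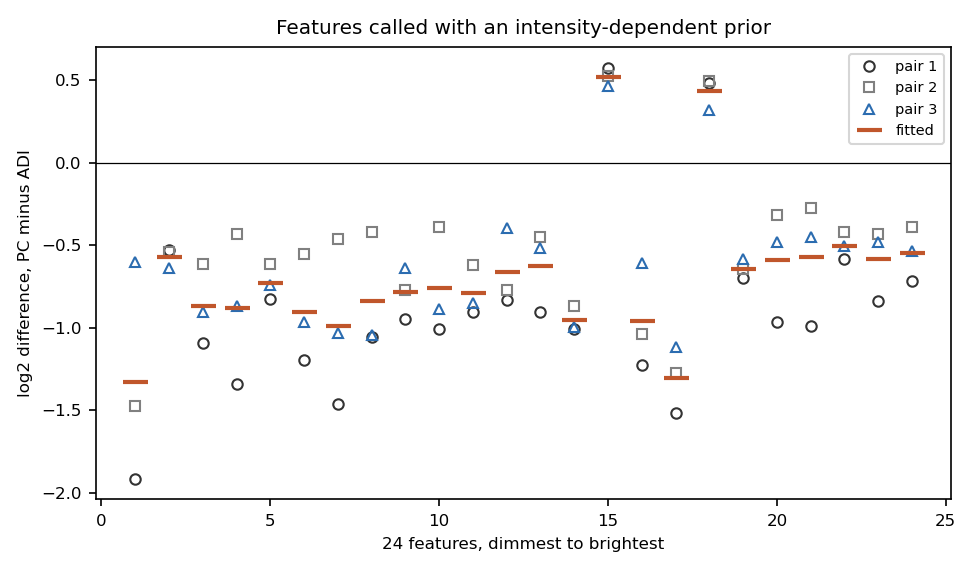
Log2 difference between PC and ADI (y axis) in each of the 3 pairs and in the fit for the 24 features called with the brightness-dependent prior, in order of mean level (x axis). In every feature the 3 pairs lie on the same side of 0, 22 below and 2 above, which selection by a small p in the paired fit favours.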

How the data were processed

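Brain RNA was labelled with Cy3 and hybridised to one-colour Agilent arrays, 1 per mouse, per the labels. The authors deposited intensity values for 12439 features in 1 table, made with Agilent Feature Extraction per the submitters' processing notes. Neither the software version nor the handling of background and the selection of features is stated there, and detection flags were not used. Samples were grouped by title. Gene symbols come from the authors' deposited table of 51 genes, joined by feature number; its fold columns were not used. Of the 51 accessions 46 matched the RefSeq table of GRCm38.p6, all with the same symbol.

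Arrays were brought to the same 75th percentile, 13 to 33 values per array under a floor of 16 were raised to it, and values were put on the log2 scale. No listed gene was at the ceiling of 65535, and at most 1 feature per array was. The 6 arrays entered a fit of group and replicate number with limma 3.58.1 in R 4.3.3, with Benjamini-Hochberg adjustment over 12439 features and a threshold of 0.05. Levels are means ± SD of scaled intensity, and differences carry the standard error (SE) or 95% interval of the fit. The number of arrays limits the precision. The pairing comes from the replicate number in the titles: residual correlations were 0.159 to 0.317 for equal numbers and -0.20 to 0.0039 otherwise, and 6 of 6 arrays correlated best with their own number. The fit was tested on simulated data.

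Members, gene lists and role groups were chosen with earlier results of these data known. Genes were named by a rule: an unadjusted p under 0.05, groups that do not overlap, the 5 highest and 5 lowest differences, the 3 smallest, the 3 widest and 3 narrowest intervals, and a fixed list of 18. At most 2 unnamed features per direction were taken, those with the smallest p among differences of at least 1.5-fold whose groups do not overlap. Mki67 was added after its value was seen. Alternatives covered scaling, floor, filter, variance model, array weights, block and left-out pairs; those removing a trend along the feature number, and the variance models combined with other choices, were chosen after seeing the data. Promoter motifs were searched in RefSeq windows of GRCm38.p6.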

Additional observations from a re-analysis of the deposited data

How the results depend on the processing

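With no replicate block, 0 features were called, 342 had an unadjusted p under 0.05, 87.8% of intervals lay within 2-fold, the median half-width was 0.39 and 0 listed genes had p under 0.05. With no scaling between arrays the half-width was 0.37, 0 listed genes had p under 0.05 and the listed median was 0.13; the median of all features moved to 0.14 by construction, 87.2% of the 836 features at p under 0.05 were higher in PC (43.6% in the scaled fit), and 4 of 51 listed genes were lower. A floor of 64 gave 96.3% within 2-fold, a half-width of 0.28 and 1 feature at 2-fold in all pairs; leaving out the dimmest 25% of features gave 99.4%, 0.25 and 1, and a smallest adjusted p of 0.0722 with 0 called. An intensity trend with robust estimation gave 24 calls, a half-width of 0.27 and 3 listed genes at p under 0.05 (Ppp1r18, Olfr1278 and Catsperb). Counts of calls were 22 with the trend alone, 0 with robust estimation alone, and, with both, 0 with no replicate block, 23 with quantile normalization, 6 with no scaling and 20 with the feature-number trend removed. Leaving out one replicate number at a time gave 0 calls in the paired fit and 29, 5 and 13 with trend and robust estimation, 84.1% to 86.8% within 2-fold, half-widths of 0.40 to 0.44, 30 to 38 features at 2-fold in all remaining pairs, and 0 listed genes at p under 0.05. Fewer samples widen these intervals by construction; for the other changes the cause was not tested. Of the single-gene values, 375 moved by less than the spread and 17 by more, 15 of these with no scaling. A common median, quantile normalization, a floor of 1, features at the ceiling left out and array weights left the counts of the paired fit within 1.5-fold; of these, only quantile normalization was run with trend and robust estimation. With 3 mice a group and no detection flags, dim features have the least precise values.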
